A study of Rattus norvegicus with 6 samples.

Results

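The genes described here are 10 myosin heavy and light chain genes of striated muscle, chosen by name: *Myh1*, *Myh2*, *Myh3*, *Myh4*, *Myh7*, *Myh8*, *Myl1*, *Myl2*, *Myl3* and *Myl4*. Rows of the array were matched to them through their RefSeq transcript accessions. Of the 10 genes, 6 had a row, namely *Myh3* (NM_012604), *Myh4* (NM_019325), *Myh7* (NM_017240), *Myl1* (NM_001077656 and NM_020104), *Myl2* (NM_001035252) and *Myl3* (NM_012606), while *Myh1*, *Myh2*, *Myh8* and *Myl4* were not analysed here. These 6 genes took 7 rows, and the rows of *Myl1* were averaged, which left 26299 features after the same step for all symbols. The values come from skeletal muscle of 1-day-old male Wistar rats, in which soleus and gastrocnemius were pooled. Low birth weight (LBW) pups lay between the percentiles 5 and 25 of birth weight, and average birth weight (ABW) pups served as controls. The characteristics of the samples place the ABW pups in percentiles 25 to 75, whereas the treatment protocol places them in percentiles 50 to 75. Each group had 3 pups, with 1 single-colour array per pup, and neither group carried a transgene or received an agent. The sources used here do not tie a pup to its litter, so that pups of a group may share a mother.

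Myosin is the motor of the thick filament: the heavy chains hydrolyse ATP and pull on actin, and each heavy chain carries an essential and a regulatory light chain on its lever arm. In limb muscle, the embryonic (*Myh3*) and neonatal (*Myh8*) heavy chains give way after birth to the adult fast chains (*Myh1*, *Myh2*, *Myh4*), whereas the slow chain (*Myh7*) is already made in primary fibres of the embryo and persists in adult slow fibres. The mix of adult chains sets the speed and energy use of a fibre, and the soleus is known as a slow and the gastrocnemius as a mainly fast muscle. LBW and ABW pups were compared for each chain and for the balance between embryonic and adult, and fast and slow, isoforms.

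Of the 6 genes, 0 passed the threshold for a difference between LBW and ABW pups, which was an unadjusted p below 0.05 from limma together with a 1.5-fold or larger difference and was passed by 4.27% of all features (2.38% higher and 1.89% lower in LBW pups). The values of the groups overlapped in each of the 6 genes, while 17.4% of all features had groups that did not overlap. With the rows of *Myl1* averaged, the highest signals were those of *Myh3*, the embryonic heavy chain, and *Myl1*, the fast essential light chain. The lowest was that of *Myh4*, the fastest adult heavy chain. *Myh7*, the slow heavy chain, showed the largest difference in mean signal, 1.33-fold higher in LBW pups with a 95% interval from 0.945 to 1.87, an interval that spans no difference.

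The sequences just before the annotated start are shown for the heavy chains at either end of the signal order, *Myh3* and *Myh4*, and for the slow light chain *Myl3*, so that the most and least bright heavy chains can be set beside a light chain. Each run holds the 250 bases before the start in the RefSeq annotation of GRCr8, 5′ to 3′ on the plus strand, at chr10:52268935-52269184 for *Myh3*, chr10:52421898-52422147 for *Myh4* and chr8:119616844-119617093 for *Myl3*. Capitals mark matches to 5 motifs known from muscle promoters, searched on both strands: the E-box (CANNTG, the motif of MyoD and its relatives), the MCAT element (CATTCC), the TATA motif (TATAAA), the CArG box of serum response factor and the MEF2 site.
Myh3: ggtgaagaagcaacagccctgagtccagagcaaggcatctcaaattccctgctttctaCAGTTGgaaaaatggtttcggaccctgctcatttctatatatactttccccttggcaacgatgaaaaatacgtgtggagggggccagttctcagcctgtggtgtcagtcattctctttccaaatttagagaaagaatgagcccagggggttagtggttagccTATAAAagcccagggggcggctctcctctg
Myh4: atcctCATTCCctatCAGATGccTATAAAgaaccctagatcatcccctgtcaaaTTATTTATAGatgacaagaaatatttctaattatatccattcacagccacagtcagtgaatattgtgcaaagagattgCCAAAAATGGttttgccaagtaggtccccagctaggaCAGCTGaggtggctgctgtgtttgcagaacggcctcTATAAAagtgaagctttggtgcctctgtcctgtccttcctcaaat
Myl3: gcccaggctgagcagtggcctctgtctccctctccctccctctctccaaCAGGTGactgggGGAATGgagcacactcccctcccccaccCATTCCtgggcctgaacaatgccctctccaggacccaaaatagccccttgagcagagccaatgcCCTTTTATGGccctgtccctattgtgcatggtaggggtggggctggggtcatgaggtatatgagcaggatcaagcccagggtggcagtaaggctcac
The *Myh3* window held an E-box that begins 192 bases before the start and a TATAAA at 30 bases. The *Myh4* window held E-boxes at 235 and 81 bases, an MCAT element at 245, TATAAA at 227, 193 and 45, a CArG box at 118 and a MEF2 site at 196 that overlaps the TATAAA at 193, which reads on the minus strand. The *Myl3* window held an E-box at 201 bases, MCAT elements at 189 and 161, of which the first reads on the minus strand, and a CArG box at 97. Of 33469 windows of the same length, 65.5% held an E-box, 12.1% an MCAT element, 12.9% a TATAAA, 1.5% a CArG box and 1.68% a MEF2 site. These are matches of letters, and no binding was measured.

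The tissue was checked against 12 muscle genes, of which 10 had a row. All 10 lay above the median signal in ABW pups, none passed the threshold, and their median difference was 0.01 on the log2 scale. The array medians of the 6 pups lay between 8.695 and 8.757, on a scale that ran from 4.577 to 15.49. LBW 2 stood apart from the other LBW pups in bone genes: 14 bone genes deviated from their ABW mean by 0.36 in LBW 2 on average, compared to 2.69 in LBW 1 and 3.36 in LBW 3, on the log2 scale. Without LBW 2, the differences of the myosin genes were 0.06 for *Myh3*, -0.03 for *Myh4*, 0.44 for *Myh7*, 0.01 for *Myl1*, -0.25 for *Myl2* and 0.19 for *Myl3*, and again none passed the threshold. In a whole muscle, fewer cells of a type and less RNA per cell cannot be told apart.

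In ABW pups the signals followed the order *Myh3*, *Myl1*, *Myl3*, *Myh7*, *Myl2* and *Myh4*. The mean log2 signal was 14.41 ± 0.07 (SD, n = 3) for *Myh3*, higher than 99.0% of the features, and 8.20 ± 0.22 for *Myh4*, at the percentile 45.6. Between neighbours in the order, the gap was 0.23 from *Myh3* to *Myl1*, 0.66 to *Myl3*, 0.77 to *Myh7*, 2.27 to *Myl2* and 2.28 to *Myh4*. No neighbours overlapped among the ABW pups, and each gene lay above the next in 6 of 6 pups. Thus the order was the same in LBW pups. It is an order of signals and not of transcripts, because brightness also depends on the probes. The first place of *Myh3* also rests on averaging the rows of *Myl1*, which stand for different RefSeq transcripts of that gene. These rows differed from each other by 0.73 to 0.97 within a pup, more than the gap from *Myh3* to *Myl1*. The brighter row had an ABW mean of 14.61 and lay above *Myh3* in every pup except LBW 3. Whether probes or transcript levels set the rows apart was not tested. The deposited values hold no detection call, and the *Myh4* signal lay below the median of every array, so how far it stood above background is unknown. In the plot of signals by pup, 5 of the 6 genes stand above the band of the array medians.

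**Figure D1:**
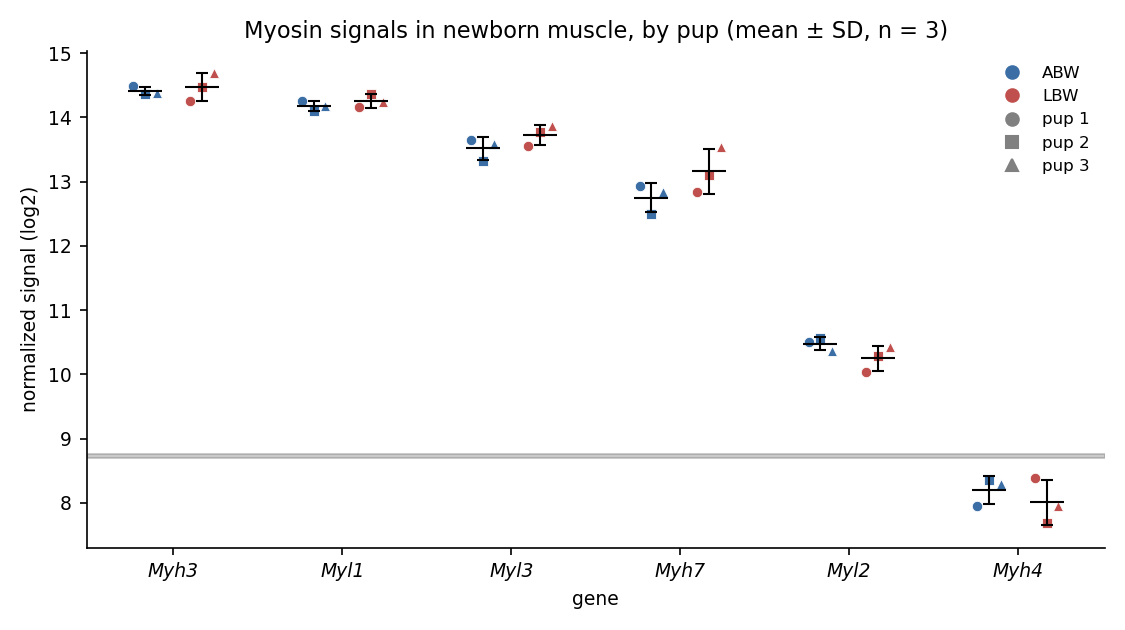
Normalized log2 signal (y axis) of the 6 myosin genes with a row (x axis, by ABW mean) in ABW (blue) and LBW (red) pups. Circles, squares and triangles are pups 1, 2 and 3 of each group, which the labels do not pair. Black bars are mean ± SD (n = 3), and the grey band spans the array medians (8.695 to 8.757). With the rows of *Myl1* averaged, the *Myh3* signals sit highest, near 14.41 in ABW pups, and the *Myh4* signals lowest, near 8.20. The groups overlap for each gene.

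Among the heavy chains, the embryonic *Myh3* signal was 14.26, 14.47 and 14.68 in LBW 1, 2 and 3. In ABW 1, 2 and 3 it was 14.49, 14.37 and 14.38, and all values below follow this order of pups. LBW 1 was the lowest and LBW 3 the highest of the 6 pups, with the ABW pups between. The difference was 0.06 with an SE of 0.13 (limma, adjusted p = 0.878), or 1.04-fold with a 95% interval from 0.847 to 1.29.

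*Myh7* encodes the slow heavy chain, also made in the heart. Its signal was 12.84, 13.11 and 13.54 in LBW pups and 12.93, 12.49 and 12.84 in ABW pups. LBW 2 and LBW 3 lay above every ABW pup, whereas LBW 1 lay below ABW 1 and close to ABW 3. The difference was 0.41 (SE 0.20, adjusted p = 0.474 by limma) with an interval from -0.08 to 0.90. When LBW 1 was left out it was 0.57, with an unadjusted p of 0.0307 but a fold change under 1.5, and when LBW 3 was left out it was 0.22.

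*Myh4* encodes the fastest adult heavy chain, that of type IIb fibres. It measured 8.38, 7.68 and 7.96 in LBW pups and 7.95, 8.36 and 8.29 in ABW pups. The highest value (LBW 1) and the lowest (LBW 2) both belonged to LBW pups. The difference was -0.19 with an SE of 0.20 (limma, adjusted p = 0.741), or 0.875-fold with an interval from 0.623 to 1.23. *Myh4* and *Myh7* had the widest spread of the 6 genes within groups, with a pooled SD of 0.30 each, where the median over all features was 0.16.

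Among the light chains, *Myl1*, the essential light chain of fast fibres, was the steadiest gene of the set, with a pooled SD of 0.09. It measured 14.15, 14.37 and 14.24 in LBW pups and 14.26, 14.11 and 14.18 in ABW pups, so the ABW values lay within and just below the LBW range. The difference was 0.07 (SE 0.10, adjusted p = 0.806 by limma), and both of its rows gave a like value, 0.09 for NM_001077656 and 0.05 for NM_020104.

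*Myl2* encodes the regulatory and *Myl3* the essential light chain of slow fibres and heart ventricle. *Myl2* measured 10.04, 10.29 and 10.42 in LBW pups and 10.50, 10.56 and 10.37 in ABW pups. Only LBW 3 reached into the ABW range, above ABW 3. The difference was -0.23 with an SE of 0.12 (limma, adjusted p = 0.509), or 0.854-fold with an interval from 0.694 to 1.05. When LBW 3 was left out it was -0.31, with an unadjusted p of 0.0458 by limma but a fold change under 1.5. When LBW 1 was left out it was -0.12. *Myl3* measured 13.55, 13.77 and 13.86 in LBW pups and 13.65, 13.32 and 13.59 in ABW pups. LBW 2 and LBW 3 lay above every ABW pup, as for *Myh7*, and LBW 1 lay between the ABW values. The difference was 0.21 with an SE of 0.13 (limma, adjusted p = 0.572), or 1.15-fold with an interval from 0.927 to 1.44. The signs of the slow light chains were thus opposite, with *Myl3* higher and *Myl2* lower in mean.

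Over the set, 4 genes were higher and 2 lower in mean in LBW pups, with a median difference of 0.07 against -0.02 over all features. On an unadjusted p below 0.05 alone there were 0 of 6 genes, against 3250 of 26299 features. After Benjamini-Hochberg adjustment, limma called 0 features (0%), with a smallest adjusted p of 0.214, and the test named in the methods called 584 features before and 0 after adjustment. Exact permutation tests (2-sided) of the single genes gave p from 0.2 to 0.8, where 3 against 3 pups cannot go below 0.1. All 6 intervals spanned 0. Those of *Myh3*, *Myl1*, *Myl2* and *Myl3* lay within 1.5-fold in either direction and all 6 within 2-fold.

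**Figure D2:**
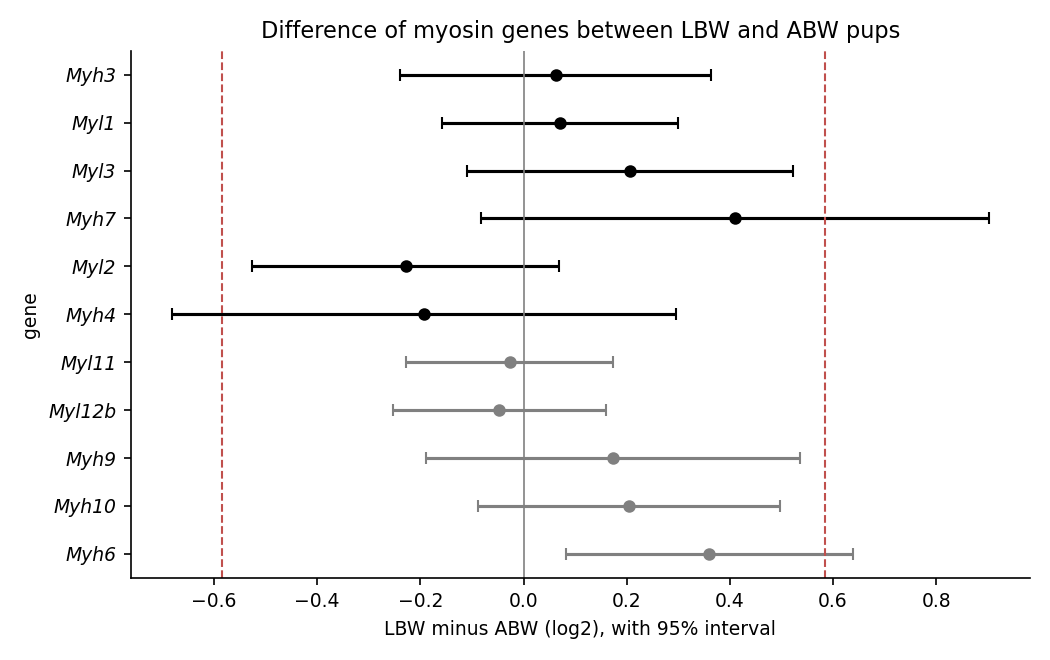
LBW minus ABW difference on the log2 scale (x axis) of the 6 myosin genes of the set (black) and of 5 other myosin genes with a row (grey; y axis), with 95% intervals from limma; red dashed lines mark 1.5-fold in either direction. The intervals of the 6 genes all cross 0, and that of *Myh7* reaches from -0.08 to 0.90.

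The isoform balance was also taken within each pup. *Myh3* minus the mean of *Myh4* and *Myh7*, the embryonic heavy chain against those that adult fibres keep, was 3.65, 4.08 and 3.94 in LBW pups and 4.05, 3.94 and 3.81 in ABW pups. The groups overlapped and their means differed by -0.05. This small value combined opposite differences: *Myh3* minus *Myh7* differed by -0.35 and *Myh3* minus *Myh4* by 0.26. The fast signals (*Myh4* and *Myl1*) minus the slow signals (*Myh7*, *Myl2* and *Myl3*) were -0.87, -1.36 and -1.51 in LBW pups and -1.26, -0.89 and -1.03 in ABW pups. Here too the groups overlapped, with a difference of -0.19, which was -0.38 without LBW 1 and -0.06 without LBW 3.

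Of the 15 pairs among the 6 genes, 7 had within-pup differences that did not overlap between groups, and each of the 7 held *Myh7* or *Myl2*. Over all pairs of features, 18.5% did not overlap in this way. The 15 pairs rest on 6 values per pup, so that they are not independent of each other, they were examined after the values were seen, and no test was made. *Myh7* minus *Myl2* was 2.81, 2.82 and 3.12 in LBW pups and 2.42, 1.93 and 2.47 in ABW pups, which is 0.64 higher in LBW pups. *Myl3* minus *Myl2*, the slow light chains, was 3.51, 3.48 and 3.44 in LBW pups and 3.14, 2.76 and 3.22 in ABW pups. The LBW pups thus lay close together, above all ABW pups. *Myh3* minus *Myh7* was 1.42, 1.37 and 1.15 in LBW pups and 1.56, 1.88 and 1.54 in ABW pups, so that the embryonic signal stood less far above the slow one in each LBW pup. *Myh3* minus *Myh4* overlapped, from 5.87 to 6.80 in LBW pups and from 6.004 to 6.54 in ABW pups.

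**Figure D3:**
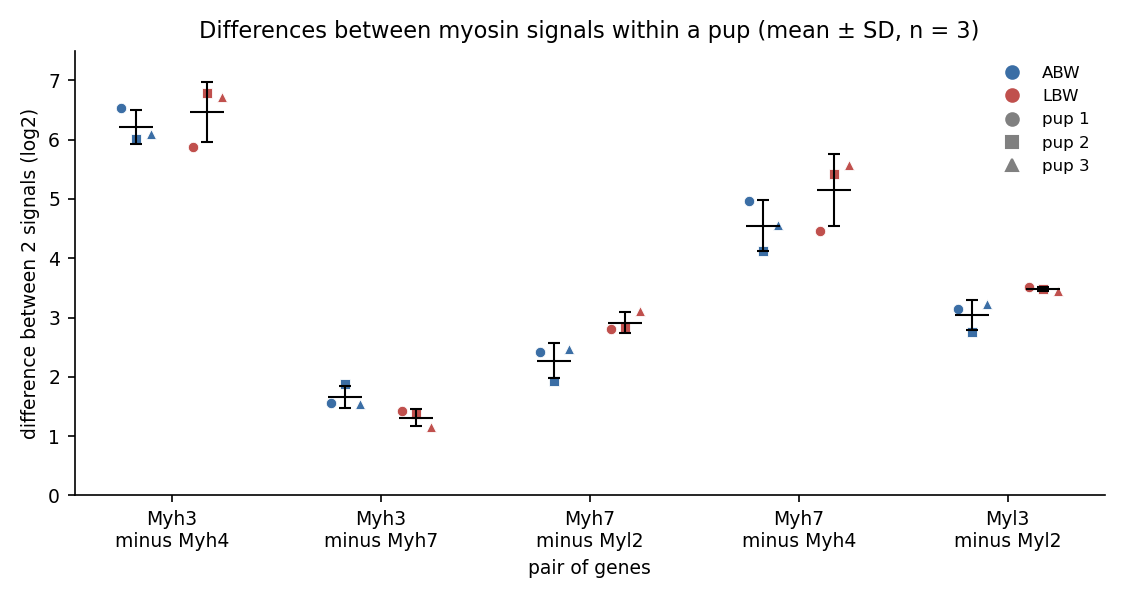
Difference between log2 signals of 2 myosin genes within a pup (y axis) for 5 pairs (x axis) in ABW (blue) and LBW (red) pups. Circles, squares and triangles are pups 1, 2 and 3 of each group, which the labels do not pair. Black bars are mean ± SD (n = 3). *Myh3* minus *Myh7*, *Myh7* minus *Myl2* and *Myl3* minus *Myl2* do not overlap between groups, whereas the pairs with *Myh4* do.

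The pups differed in which gene deviated most from its ABW mean. In LBW 3 the highest deviation was that of *Myh7* at 0.79, followed by *Myl3* at 0.34 and *Myh3* at 0.27, and the lowest was that of *Myh4* at -0.24. In LBW 2 the highest was that of *Myh7* at 0.35 and the lowest that of *Myh4* at -0.52. LBW 1 departed from both, with *Myl2* at -0.44 as its lowest value. Across the 6 pups, *Myh7* and *Myl3* varied together (Pearson's r 0.96, Spearman's rho 0.94). *Myh4* and *Myl1*, both of fast fibres, varied in opposite directions (r -0.96, rho -0.94), though the *Myh4* signal lay below every array median. These were the highest and lowest r of the 15 pairs. *Myl2* followed neither of the other slow genes (r -0.11 with *Myh7* and -0.16 with *Myl3*). These correlations describe 6 values per gene that share their arrays and hold both groups.

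**Figure D4:**
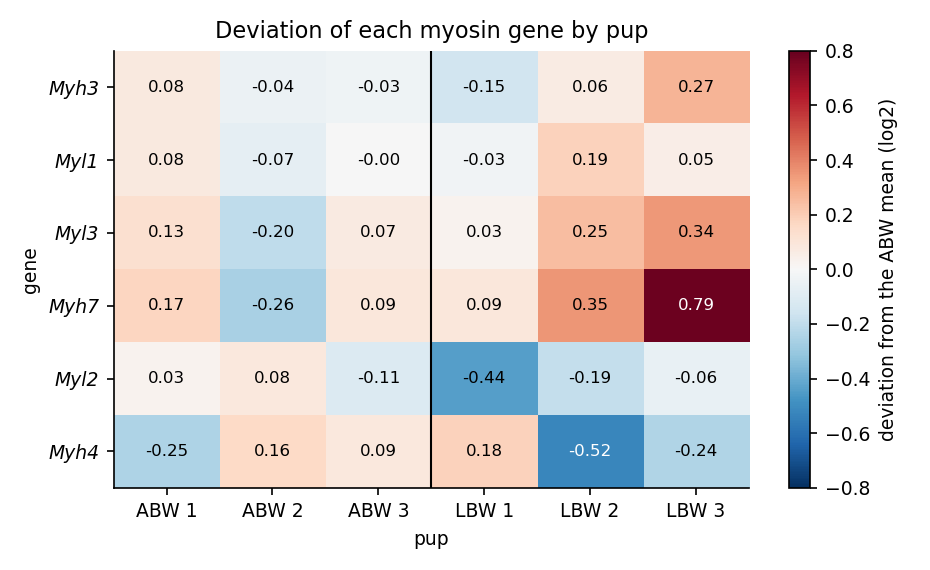
Deviation of each myosin gene (y axis) from its ABW mean in each pup (x axis), on the log2 scale, in red where higher and in blue where lower; the black line parts ABW from LBW pups. The largest deviation is that of *Myh7* in LBW 3 (0.79), and *Myh4* is at -0.52 in LBW 2.

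The genes whose signal followed *Myh3* most closely over the 6 pups, among 8637 symbols with a comparable spread, were *Bcas1* (r 0.993), *Car11* (r 0.989) and *Cadm4* (r 0.985). They were picked as the highest of 8637 correlations over 6 values each, a choice that can give a high r by itself. The signals of *Bcas1* and *Cadm4* lay below the median of every array. The SD of *Myh3* over the pups was only 0.15, and shared regulation was not tested.

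Of 17 other myosin genes, 5 had a row and 0 passed the threshold, with a median difference of 0.17. *Myh6*, the fast heavy chain of the heart, was 8.72, 8.77 and 8.60 in LBW pups and 8.35, 8.50 and 8.16 in ABW pups. Its groups did not overlap, and the difference was 0.36 with an SE of 0.12 (limma, adjusted p = 0.322), or 1.28-fold. *Myh6* and *Myh7* are close copies of each other, and whether the probes of the array tell them apart was not tested. *Myl11* (listed also as *Mylpf*), the regulatory light chain of fast fibres, was 14.82 ± 0.08 in LBW and 14.85 ± 0.03 in ABW pups (SD, n = 3 each). The nonmuscle genes *Myh9*, *Myh10* and *Myl12b* differed by 0.17, 0.20 and -0.05.

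Of 19 genes listed as thick filament partners, such as proteins that assemble, phosphorylate or turn it over, 6 had a row. The list holds *Csrp3*, a Z-disc protein counted again among the slow fibre genes, and *Mylk2*, counted again among the fast fibre genes. All 6 were higher in mean in LBW pups, with a median difference of 0.35, but 0 passed the threshold. *Mylk2*, the skeletal myosin light chain kinase, was 11.84, 11.98 and 11.81 in LBW pups and 11.60, 11.35 and 11.26 in ABW pups. The groups did not overlap, but the fold change of 1.39 stayed under 1.5 (difference 0.47, SE 0.12, adjusted p = 0.275 by limma). *Trim63*, the ubiquitin ligase MuRF1 that marks myosin for degradation, was 10.98, 11.40 and 10.38 in LBW pups and 10.55, 10.29 and 10.15 in ABW pups, which overlapped.

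Of 12 genes of fast fibres 10 had a row, 0 passed, and 5 were higher and 5 lower in mean, with a median difference of 0.03. *Pvalb*, the calcium buffer parvalbumin of fast fibres, ranged widest, with 7.44, 8.79 and 6.87 in LBW pups and 8.31, 8.58 and 9.32 in ABW pups. Its difference was -1.04 (SE 0.51, adjusted p = 0.468 by limma) and its groups overlapped. Of 12 genes of slow fibres 9 had a row, 0 passed, and 7 were higher in mean, with a median difference of 0.05. *Csrp3*, a Z-disc protein, and *Tnni1*, the slow troponin I, were 0.30 and 0.27 higher in LBW pups (adjusted p = 0.395 and 0.408 by limma), and neither overlapped between groups. Of the 9 slow fibre genes, 4 did not overlap, against 17.4% of all features. These also held *Casq2*, higher by 0.20, and *Cd36*, which was lower in LBW pups (-0.09). Among 11 genes of developing muscle, from sarcomere and synapse genes to transcription factors, 9 had a row, 0 passed, and 8 were higher in mean. The median difference of the 9 was 0.25. *Ncam1*, the neural cell adhesion molecule of immature fibres, differed by 0.48 and *Chrng*, the fetal subunit of the acetylcholine receptor, by 0.36, and both overlapped between groups.

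Of 15 regulators of fibre type 6 had a row, and 1 passed the threshold, *Sox6*, a transcription factor that represses slow fibre genes. It rose in LBW pups, at 11.22, 11.44 and 10.99 against 10.45, 10.66 and 10.61 in ABW pups. Every LBW pup lay above every ABW pup, with a difference of 0.65 (SE 0.14, fold change 1.56, adjusted p = 0.25 by limma). Without LBW 2 the difference was 0.54 and without ABW 1 it was 0.58, and in both cases the fold change was under 1.5. *Esrra*, a receptor of oxidative metabolism, differed by 0.23, with overlapping groups. In the plot of differences by gene list, *Sox6* is the only gene past the threshold.

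**Figure D5:**
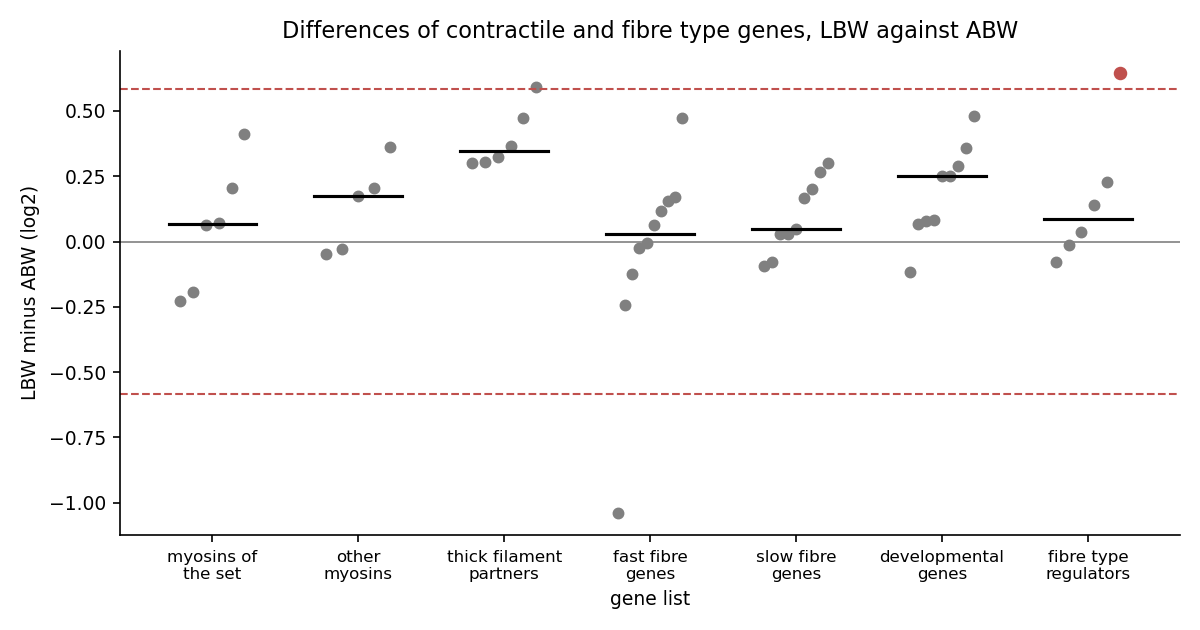
LBW minus ABW difference on the log2 scale (y axis) of each gene with a row in 7 gene lists (x axis); grey points did not pass the threshold, the red point is *Sox6* at 0.65, black bars are list medians and red dashed lines mark 1.5-fold in either direction. The medians run from 0.03 for fast fibre genes to 0.35 for thick filament partners, and the 6 myosins of the set lie between -0.23 and 0.41.

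Because the heart ventricle also makes *Myh7*, *Myl2* and *Myl3*, markers of the heart were examined, together with those of other tissues. Of 10 heart genes 7 had a row, 0 passed the threshold, their median difference was 0.15, and 1 of 7, *Tnni3*, lay above the median signal in ABW pups. *Tnni3*, the cardiac troponin I, was 10.34, 10.37 and 10.37 in LBW pups and 10.20, 9.54 and 9.67 in ABW pups. The summed linear signal of the heart genes was 2096 to 2147 in LBW and 1461 to 1847 in ABW pups. *Tnni3* made up most of this sum, and the other 6 genes gave 798 to 824 in LBW and 670.5 to 714 in ABW pups. *Myh6* was the brightest of these 6, and a sum without it was not taken. *Tnni3* and *Myh6* were the 2 of 7 heart genes whose groups did not overlap, against 17.4% of all features. The other heart genes with a row are named here after their values were seen. They differed by 0.01 (*Nppa*), -0.01 (*Nkx2-5*), 0.09 (*Hcn4*), 0.15 (*Nppb*) and 0.26 (*Tbx5*), with overlapping groups. All of these were dim in ABW pups, from the percentile 6.2 for *Nppa* to 37.1 for *Hcn4*. Of the 7 heart genes, 6 were higher and 1 lower in mean in LBW pups. Of 14 bone genes with a row 8 were higher in LBW pups past the threshold, and their summed linear signal was 36241 to 97251 in LBW and 36121 to 41483 in ABW pups. *Spp1*, the bone matrix protein osteopontin, was 13.03, 9.78 and 14.24 in LBW pups and 7.27, 7.52 and 7.18 in ABW pups. Of the cartilage genes 1 of 6 was higher, of the osteoclast genes 2 of 7, of the neutrophil genes 4 of 6, and of the smooth muscle genes 0 of 4, while 0 of 7 erythroid genes passed and 4 of 16 adipocyte genes were lower. Over all features, 2.38% were higher and 1.89% lower past the threshold. In LBW 1, 2 and 3, bone genes deviated from their ABW mean by 2.69, 0.36 and 3.36 on average. *Myh7* deviated by 0.09, 0.35 and 0.79 in these pups, and a relation between these values was not tested. The part of these tissues in the myosin signals was not tested.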

How the data were processed

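RNA from the muscle of 6 pups (3 LBW, 3 ABW) was hybridized to NimbleGen single-colour arrays with 5 probes per transcript. The authors deposited log2 values per transcript row, which they normalized in R with their own scripts and Bioconductor. RMA is named in the submitters' processing notes, and the background correction and versions are not given in the sources used here. They were tested as deposited, so a shift shared by all genes cannot be seen.

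Symbols were given to 9747 rows (36.9%, 9627 symbols) through the RefSeq table of GRCr8, without coordinates, since the array follows another build. Rows of a symbol were averaged. LBW was compared with ABW with limma 3.58.1 in R 4.3.3 (lmFit, eBayes, 2-sided), with Benjamini-Hochberg adjustment over 26299 features. The threshold was that of the methods, an unadjusted p below 0.05 with a 1.5-fold or larger difference. The script was tested on simulated data. Precision is limited by the number of arrays, and p-values measure the spread between pups, whose litters are not given.

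The members, gene lists and tests were chosen with earlier results of these data known. All members and other myosins with a row were named, with the genes past the threshold in each list of muscle genes (where fewer than 2 passed, the 2 of largest difference), and the 3 genes most like *Myh3*. From the marker lists (skeletal, smooth and heart muscle, bone, cartilage, osteoclasts, neutrophil precursors, erythroid cells, adipocytes), genes of highest signal or largest difference were eligible, and mostly counts are given. Alternatives were the replicate block, leaving out each pup, quantile normalization, median centring, array weights, an intensity trend or robust variance in limma, a filter on the dimmest 25% of rows, the test named in the methods, separate rows, and a fold change of 2.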

Additional observations from a re-analysis of the deposited data

How the results depend on the processing

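In all 16 alternatives, 0 of the 6 myosin genes passed the threshold. Of the single genes, *Myh3* alone changed sign, to -0.044 without LBW 3, and over the fits that left out 1 pup its difference ran from -0.044 to 0.17. The other ranges over these fits were -0.38 to -0.03 for *Myh4*, 0.22 to 0.57 for *Myh7*, 0.01 to 0.12 for *Myl1*, -0.31 to -0.12 for *Myl2* and 0.11 to 0.30 for *Myl3*. The embryonic minus adult heavy chain difference (-0.05) was -0.35 without *Myh4* and 0.26 without *Myh7*, since the adult chains differed in opposite directions. It was -0.33 with the mean of linear signals, in which the brighter *Myh7* outweighs *Myh4*. With log2 signals and a pup left out, this difference ran from -0.14 to 0.07. The fast minus slow difference (-0.19) ran from -0.38 to -0.06 with a pup left out and was -0.05 without *Myh7*. Over all features, 1124 passed; 335 did at a fold change of at least 2, 584 by the test named in the methods, and 798 to 1546 with a pup left out. After adjustment 0 passed, except for 125 without LBW 2, a range of 0 to 125 over the pups left out, and the cause was not tested. Pups of the same number deviated together weakly (correlations 0.09, 0.10 and 0.06). The labels state no pairing by number, and weak correlations cannot exclude a pairing. With the replicate block, 1230 features and 0 of the 6 myosin genes passed. The number of arrays, and the lack of detection calls for dim genes such as *Myh4*, limit the precision.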
